A study of Homo sapiens with 6 samples.

Results

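The transcripts of 9 genes of JAK-STAT signalling were followed in U251 cells, a human glioblastoma line, with and without tumor necrosis factor-α (TNF-α). They were the transcription factors STAT2, STAT3, STAT5A and STAT6, the kinases JAK1 and JAK2, and the inhibitors SOCS1, SOCS2 and SOCS3. The members were chosen by gene name, and all 9 were found once among the 58735 genes of the expression table. The NC group (n = 3) received sterile deionized water, and the TNF-α group (n = 3) received recombinant human TNF-α at 10 ng/mL, both for 24 h. The 3 libraries of a group came from independent replicates of a single line, and neither group carried a genetic change. Levels are given as FPKM, a read density that adjusts for gene length and library size.

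Receptors of many cytokines carry no enzyme of their own and rely on bound Janus kinases (JAKs), which phosphorylate each other and the receptor when a ligand binds. STAT proteins dock on the receptor, are phosphorylated, pair and move to the nucleus, where they switch on target genes. Some of these targets encode SOCS proteins, which bind the kinases or the receptor and limit the signal. TNF-α receptors signal by other adaptors, but TNF-α induces cytokines that act through JAKs. In glioblastoma, STAT3 is known as a driver of the mesenchymal state.

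The libraries held between 31992167 and 37897044 reads assigned to genes. The library size used in the FPKM was 0.693 and 0.759 of these reads in TNF-α replicates 2 and 3. In the other libraries it was 0.925 to 0.959 of them. The same share of reads in genes thus gives a higher FPKM in TNF-α replicates 2 and 3. TNF-α replicates 2 and 3 stood apart from the other 4 libraries: genes with more than 8 kb of exon took 16.6% and 17.9% of their reads, against 28.8% to 29.1% elsewhere. Gene by gene, the log2 ratio to the mean of the 6 libraries followed GC content and length in every library. That mean includes TNF-α replicates 2 and 3, so a trend in them also enters the ratios of the other libraries with opposite sign. The trend with GC content and length covered 40.4% and 39.2% of the variance of the log2 ratio in TNF-α replicates 2 and 3 and 25.3% to 36.0% in the others. Each tested member is thus also given with that trend removed, and its value in TNF-α replicate 1 is named. Of 6 astrocyte and glioma markers, 5 passed the level filter and S100B did not. Their log2 fold changes went both ways: -1.54 for GFAP, -0.84 for SOX2, 0.03 for CD44, 0.36 for NES and 1.05 for VIM, of which limma called GFAP (adjusted p = 0.021), and the summed level was 568 to 618 FPKM in NC and 675 to 1205 in TNF-α. None of 4 leukocyte markers passed the filter. Their summed level was 0.859 to 1.16 FPKM in NC and 0.649 to 1.64 in TNF-α, and the defining leukocyte genes PTPRC and CD3E were at 0 reads in every library.

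Among the members, STAT5A was higher after TNF-α and no member was lower at the threshold. STAT5A rose 3.41-fold in mean FPKM. SOCS1 was higher in every TNF-α library without passing the threshold, and JAK1 and JAK2 were low in a pair of the TNF-α libraries. In FPKM, STAT2, STAT3, SOCS2 and SOCS3 stayed near their NC levels. STAT6 was barely detected in either group. The test was limma on log2(FPKM + 1), two-sided, with Benjamini-Hochberg adjustment over the 12136 genes that reached an FPKM of 1 in 3 or more libraries, and an adjusted p under 0.05 was called. Of the 9 members, 8 entered this test and 1 was called, against 1.01% of all genes tested called in either direction (0.717% higher and 0.297% lower). The members' groups did not overlap for 2 of the 8, both higher in TNF-α, against 30.1% of all genes tested (14.8% higher and 15.3% lower). An unadjusted p under 0.05 was reached by 2 of the 8 members and by 24.2% of all genes tested. The median log2 fold change was -0.0054 over the 8 members and 0.043 over all genes tested.

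**Figure D1:**
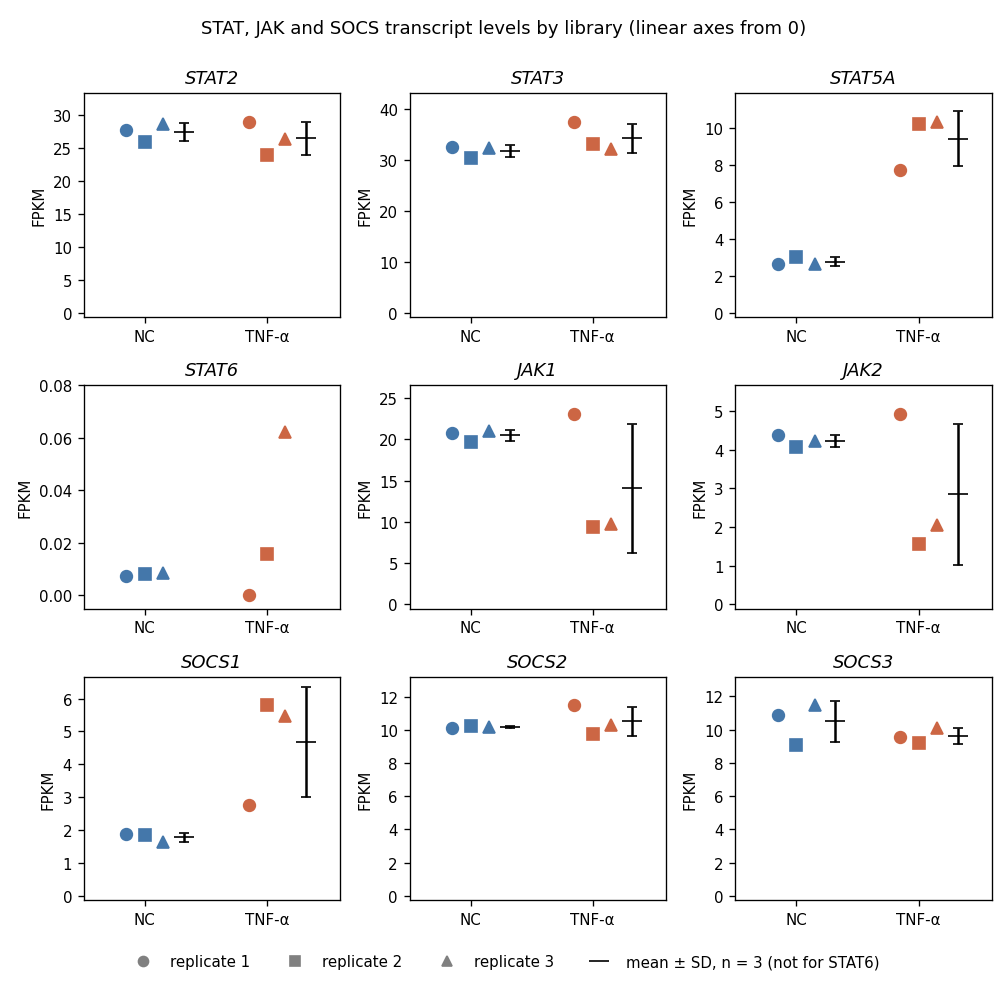
Transcript level (FPKM, linear axes) of each member in the 3 NC libraries (blue) and the 3 TNF-α libraries (red), with the replicate shown by the symbol and the mean ± SD (n = 3) beside each group except for STAT6. The 3 TNF-α libraries of STAT5A lie between 7.72 and 10.3 FPKM, above all NC libraries, whereas for JAK1 and JAK2 TNF-α replicate 1 lies above the NC libraries and replicates 2 and 3 below them.

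STAT5A encodes one of the paired STAT5 proteins that act downstream of growth hormone, prolactin, interleukin-2 family and GM-CSF receptors. Its gene (ENSG00000126561) lies on the plus strand of chr17:42287547-42311943 (GRCh38), in a cluster with STAT5B at chr17:42199168-42276707 and STAT3 at chr17:42313324-42388568, both on the opposite strand. The gaps were 10839 bases to STAT5B and 1380 bases to STAT3. STAT5A and STAT5B are near copies, and this bears on the values, because a read from a stretch they share cannot be placed by its letters. The coding sequences of their longest-coding GENCODE transcripts held an identical run of 429 bases, from coding base 564 to 992 in both. Its borders are shown, since they mark where reads of the paralogs can be told apart; the first pair covers coding bases 549 to 608 and the second pair 948 to 1007, with the identical run in capitals and the flank in lower case.
STAT5A, start of the run: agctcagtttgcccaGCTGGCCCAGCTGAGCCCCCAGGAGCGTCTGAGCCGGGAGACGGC
STAT5B, start of the run: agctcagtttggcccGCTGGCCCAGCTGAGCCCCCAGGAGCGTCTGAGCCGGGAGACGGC
STAT5A, end of the run: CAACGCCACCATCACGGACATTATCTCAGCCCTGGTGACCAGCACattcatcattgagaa
STAT5B, end of the run: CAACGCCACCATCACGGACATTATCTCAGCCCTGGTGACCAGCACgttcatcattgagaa

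Over the whole STAT5A transcript, 11.9% of windows of 50 bases, 8.83% of windows of 100 bases and 6.74% of windows of 150 bases were also in a STAT5B transcript. Most of the transcript was thus distinct at each of these lengths. No other member shared a window of 100 bases with another gene, and at 50 bases the highest share was 1.48%, for STAT3.

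STAT5A was the member that passed the threshold. In the NC libraries it was at 2.63, 3.04 and 2.63 FPKM, from 546, 574 and 486 reads. In TNF-α replicates 1, 2 and 3 it was at 7.72, 10.3 and 10.3 FPKM, from 1428, 1530 and 1445 reads. In FPKM, every TNF-α library was above every NC library, at 2.79, 3.71 and 3.74 times the NC mean. Replicate 1 was the lowest of the 3 on this scale. That order and the size of these ratios depend on the library sizes used in the FPKM. Per read in genes, every TNF-α library was still above every NC library, but replicates 1 and 2 were nearly level. The means were 2.77 ± 0.239 in NC and 9.44 ± 1.49 FPKM in TNF-α (SD, n = 3). The log2 fold change was 1.46 (SE 0.15, 95% interval 1.10 to 1.83, limma), with an adjusted p of 0.0146. The exact two-sided permutation test gave p = 0.1, the smallest that 3 against 3 libraries allow. With the GC and length trend removed, the log2 fold change was 1.26 with a limma adjusted p of 0.00419, where 2.79% of all genes tested were called. STAT5A had 57.8% GC in its transcript, above that of 80.8% of genes tested.

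The call was not kept under every setting. The STAT5A log2 fold change stayed between 1.40 and 1.59 when any single library was left out, but the limma adjusted p was 0.138, 0.129 and 0.152 without NC replicates 1, 2 and 3, and 0.0612 and 0.109 without TNF-α replicates 2 and 3. Without TNF-α replicate 1 it was 9.46e-06, a setting in which 79.4% of all genes tested were called. TNF-α replicate 1 alone against the NC libraries gave a log2 fold change of 1.21 with a limma adjusted p of 0.00215, where 6.03% of all genes tested were called. Under TPM, which rescales each library to the same sum, it was 1.18 with an adjusted p of 0.0731.

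**Figure D2:**
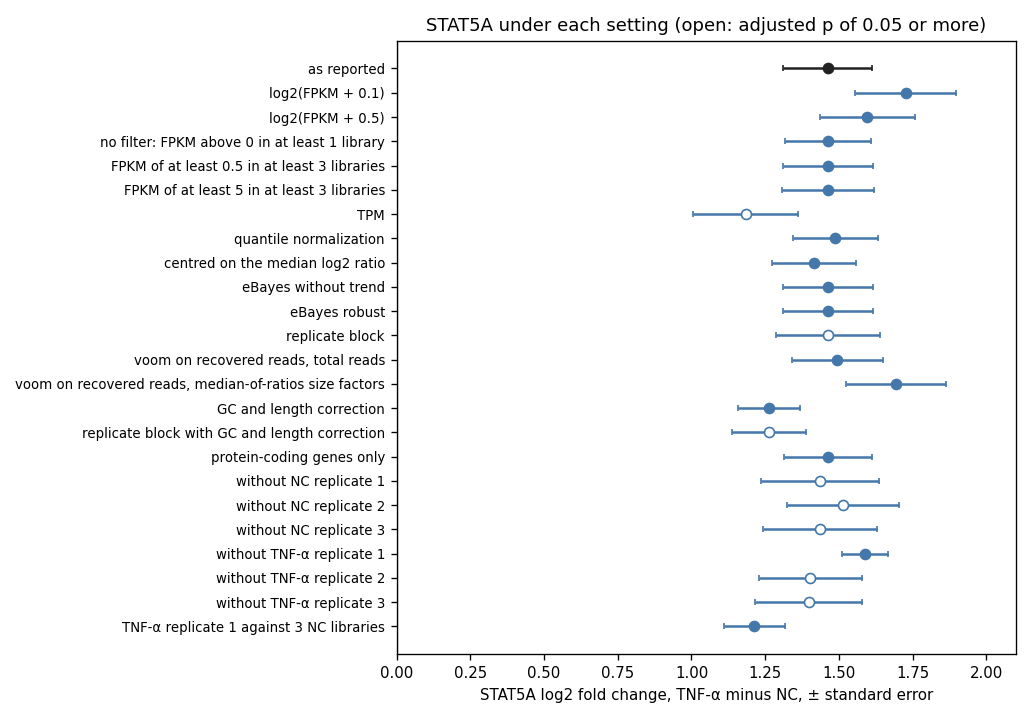
Log2 fold change of STAT5A (TNF-α minus NC, x axis, with its standard error) as reported (black) and under each other setting (blue), with open symbols where the limma adjusted p was 0.05 or more. All values lie between 1.18 and 1.73, and the settings with open symbols are TPM, the replicate block with and without GC and length correction, and the removal of any single library other than TNF-α replicate 1.

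STAT5B, the paralog, was the more abundant of the pair in NC at 11.7, 11.8 and 11.97 FPKM. In the TNF-α libraries it was at 10.7, 8.64 and 8.43 FPKM. All 3 TNF-α libraries were below all NC libraries, but the log2 fold change of -0.33 (SE 0.13) had a limma adjusted p of 0.195. Within each library, the ratio of STAT5A to STAT5B FPKM was 0.225, 0.258 and 0.220 in NC and 0.720, 1.19 and 1.23 in TNF-α. In FPKM, STAT5A went from well below its paralog to above it in TNF-α replicates 2 and 3 and remained below it in replicate 1. The difference of the mean log2 ratio was 2.12 (exact permutation p = 0.1, the smallest possible). With the GC and length trend removed, TNF-α replicates 2 and 3 were at 1.26 and 1.34 from the NC mean for STAT5A (log2 scale). For STAT5B they were at -0.31 and -0.32. The ratio of the pair was not computed on that scale, so the crossing is given for FPKM only. The summed level of STAT5A and STAT5B was 14.3, 14.8 and 14.6 FPKM in NC and 18.5, 18.9 and 18.8 in TNF-α. In FPKM, this sum was also higher in every TNF-α library (exact permutation p = 0.1). That separation depends on the library sizes used in the FPKM. Per read in genes it does not hold for TNF-α replicate 2. How reads of the shared stretches were assigned is not given in the sources used here.

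STAT3, which transmits IL-6 and LIF signals, was the most abundant member, above 88.1% of the genes tested in NC. Its gene (ENSG00000168610) was at 32.6, 30.5 and 32.4 FPKM in NC and 37.5, 33.1 and 32.3 in TNF-α. TNF-α replicate 1 was clearly above the NC range, replicate 2 was just above it and replicate 3 lay inside it. In limma it differed by 0.10 on the log2 scale (SE 0.13, 95% interval -0.22 to 0.42) with a limma adjusted p of 0.552. With the GC and length trend removed, the log2 fold change was 0.20 (95% interval 0.02 to 0.38, limma adjusted p = 0.163). In those corrected values TNF-α replicates 1, 2 and 3 were at 0.20, 0.21 and 0.19 above the NC mean. The highest NC library was at 0.050. STAT5A relative to STAT3, its neighbour on chromosome 17, was 0.0806, 0.0999 and 0.0812 in NC and 0.206, 0.310 and 0.321 in TNF-α, with no overlap.

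STAT2 is a subunit of the complex that answers type I interferon. Its gene (ENSG00000170581, minus strand, chr12:56341597-56360155) was at 27.7, 25.9 and 28.6 FPKM in NC and 28.9, 24.0 and 26.4 in TNF-α. The groups overlapped, with TNF-α replicate 1 highest and replicate 2 lowest of all 6. The difference was -0.05 on the log2 scale (SE 0.14, 95% interval -0.38 to 0.28, limma adjusted p = 0.770). Once the GC and length trend was removed it was -0.21 (adjusted p = 0.301). Within libraries, STAT2 relative to STAT3 was 0.851, 0.851 and 0.884 in NC and 0.773, 0.726 and 0.820 in TNF-α. This ratio was lower in every TNF-α library (exact permutation p = 0.1), although neither gene differed at the threshold by itself.

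STAT6, the factor of IL-4 and IL-13 signalling, had 2 reads in each NC library and 0, 3 and 11 reads in TNF-α replicates 1, 2 and 3. Its gene (ENSG00000166888, minus strand, chr12:57095408-57132139) lies 735252 bases from STAT2. These reads came to at most 0.0621 FPKM, and 3 reads, the limit that a count of 0 allows, would be 0.0114 to 0.0169 FPKM in these libraries, counting error alone being covered. Only TNF-α replicate 3 was above that limit. STAT6 failed the level filter, and no fold is given. LRP1 and NAB2 on the opposite strand covered 1.75% of its exonic bases, and the sources used here do not say whether strand was used in counting.

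JAK1 serves receptors of the IL-6 family, the interferons and the common gamma chain. Its gene (ENSG00000162434, minus strand, chr1:64833229-64966504) was at 20.7, 19.7 and 21.0 FPKM in NC and 23.1, 9.41 and 9.72 in TNF-α. TNF-α replicate 1 was above all NC libraries, and replicates 2 and 3 were far below them. The log2 fold change was -0.63 (SE 0.34, 95% interval -1.44 to 0.19) with a limma adjusted p of 0.213, and its sign was set by those libraries. It was 0.17 in TNF-α replicate 1 alone and -1.02 without that library (limma adjusted p = 1.49e-05, where 79.4% of all genes tested were called). With the GC and length trend removed, the log2 ratios to the NC mean were 0.15, -0.68 and -0.64 in TNF-α replicates 1, 2 and 3, so replicates 2 and 3 remained the lowest, and the log2 fold change was -0.39 (adjusted p = 0.247).

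JAK2, the kinase of the growth hormone, erythropoietin, GM-CSF and interferon-γ receptors, was split in the same way between the TNF-α libraries. Its gene (ENSG00000096968, plus strand, chr9:4984390-5128183) was at 4.39, 4.06 and 4.22 FPKM in NC and 4.93, 1.55 and 2.05 in TNF-α. TNF-α replicate 1 was again the highest of the 6 libraries and replicates 2 and 3 the lowest. JAK2 had a log2 fold change of -0.54 (SE 0.31, limma adjusted p = 0.230). It was 0.18 in TNF-α replicate 1 alone and -0.91 without that library (limma adjusted p = 9.88e-05, again beside 79.4% of all genes tested). The JAK2 transcript had 39.2% GC, below most genes tested, and with the GC and length trend removed the log2 fold change was -0.16 (adjusted p = 0.450). The ratio of JAK1 to JAK2 was 4.73, 4.85 and 4.98 in NC and 4.69, 6.07 and 4.74 in TNF-α, so it left the NC range clearly in TNF-α replicate 2 alone.

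TYK2, the third kinase above the filter, went the other way in TNF-α replicates 2 and 3. Its level was 23.0, 22.2 and 26.3 FPKM in NC and 27.3, 36.1 and 34.6 in TNF-α, without overlap. Its log2 fold change of 0.43 (SE 0.16) had a limma adjusted p of 0.195. In TNF-α replicate 1 alone it was 0.19, where JAK1 (0.17) and JAK2 (0.18) were positive too. With the GC and length trend removed, the TYK2 log2 fold change was 0.18 (limma adjusted p = 0.174). The summed level of JAK1, JAK2 and TYK2 was 46.0 to 51.6 FPKM in NC and 46.4 to 55.4 in TNF-α, with overlap. JAK1 made up 43.0%, 42.9% and 40.8% of that sum in NC and 41.8%, 20.0% and 20.9% in TNF-α. The makeup of the kinase pool in TNF-α replicate 1 was that of the NC libraries, and replicates 2 and 3 differed from both. What part the read composition of replicates 2 and 3 has in this was not tested.

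**Figure D3:**
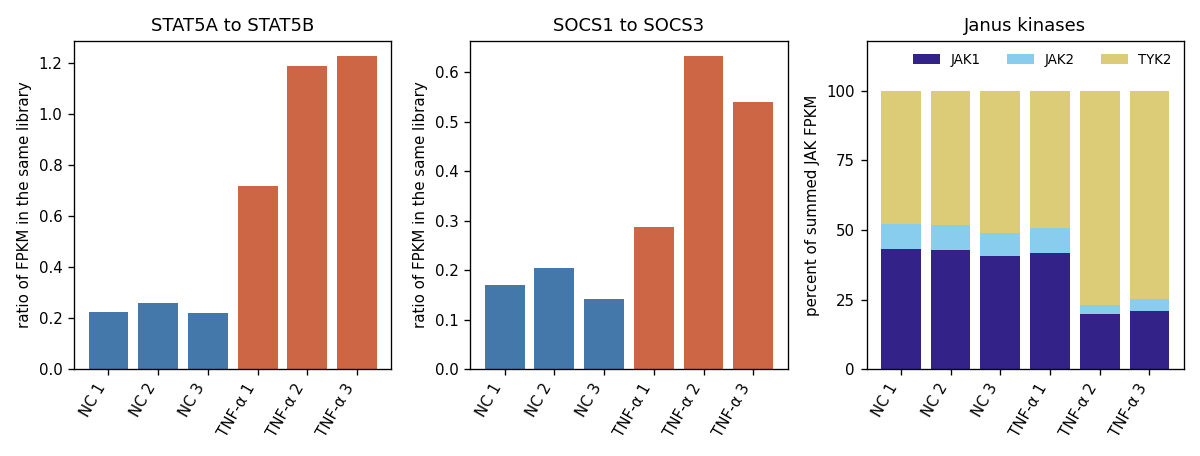
Ratios of FPKM within a library for STAT5A to STAT5B and SOCS1 to SOCS3 (bars from 0, NC in blue, TNF-α in red), and the percent of the summed JAK1, JAK2 and TYK2 FPKM from each kinase. The STAT5A to STAT5B ratio is 0.220 to 0.258 in NC and 0.720 to 1.23 in TNF-α, and JAK1 takes 20.0% and 20.9% of the kinase sum in TNF-α replicates 2 and 3 against 40.8% to 43.0% in the other libraries.

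SOCS1, a direct inhibitor of JAK catalytic activity that restrains interferon signalling, was the least abundant tested member in NC. Its gene (ENSG00000185338, minus strand, chr16:11254405-11256200) is short, and its promoter held both an interferon-type and a kappa B motif, described with the other promoters below. SOCS1 was at 1.86, 1.85 and 1.63 FPKM in NC, from 121, 109 and 94 reads, and at 2.76, 5.80 and 5.46 FPKM in TNF-α, from 159, 270 and 238 reads. All TNF-α libraries were above all NC libraries, with replicate 1 much nearer to NC than replicates 2 and 3. The log2 fold change was 0.98 (SE 0.24, 95% interval 0.39 to 1.57), with an unadjusted p of 0.00637 in limma and an adjusted p of 0.164 (exact permutation p = 0.1).

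The size of the SOCS1 difference changed with the libraries used and with the joint correction for GC content and length. Without TNF-α replicate 1 the log2 fold change was 1.25 with a limma adjusted p of 1.49e-05, where 79.4% of all genes tested were called. In TNF-α replicate 1 alone it was 0.43. The SOCS1 transcript had 69.1% GC, above that of 99.5% of genes tested, and 1784 bases. With the GC and length trend removed, TNF-α replicates 1, 2 and 3 were at 0.44, 0.0005 and 0.17 above the NC mean on the log2 scale, and the log2 fold change was 0.20 (adjusted p = 0.333). In those corrected values TNF-α replicate 1 was the highest of the 3, the opposite of their order before correction.

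SOCS2, a feedback inhibitor of growth hormone signalling, was at 10.1, 10.3 and 10.2 FPKM in NC and 11.5, 9.75 and 10.3 in TNF-α. Its gene (ENSG00000120833, plus strand, chr12:93569814-93583487) had TNF-α libraries above, below and just above the narrow NC range. SOCS2 had a log2 fold change of 0.04 (SE 0.12, 95% interval -0.25 to 0.33, limma adjusted p = 0.795), a sign that other scalings turned, and 0.05 with the GC and length trend removed. SOCS2-AS1 on the opposite strand covered 4.09% of its exonic bases.

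SOCS3, which blocks signalling from gp130 and is itself a STAT3 target, was at 10.9, 9.08 and 11.5 FPKM in NC and 9.55, 9.17 and 10.1 in TNF-α. Its gene is ENSG00000184557, on the minus strand of chr17:78356778-78360077. The TNF-α libraries all lay inside the NC range. SOCS3 had a log2 fold change of -0.11 (SE 0.13, 95% interval -0.44 to 0.22, limma adjusted p = 0.532). With the GC and length trend removed it was -0.63 (adjusted p = 0.161), the transcript having 59.99% GC. Relative to SOCS3 in the same library, SOCS1 was 0.171, 0.204 and 0.142 in NC and 0.288, 0.632 and 0.541 in TNF-α, without overlap (exact permutation p = 0.1). SOCS1 made up 4.17%, 4.25% and 3.67% of the summed SOCS and CISH FPKM in NC and 6.12%, 17.3% and 15.2% in TNF-α. This share was not computed with the GC and length trend removed. On that scale SOCS1 itself was at 0.44, 0.0005 and 0.17 above the NC mean in TNF-α replicates 1, 2 and 3.

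**Figure D4:**
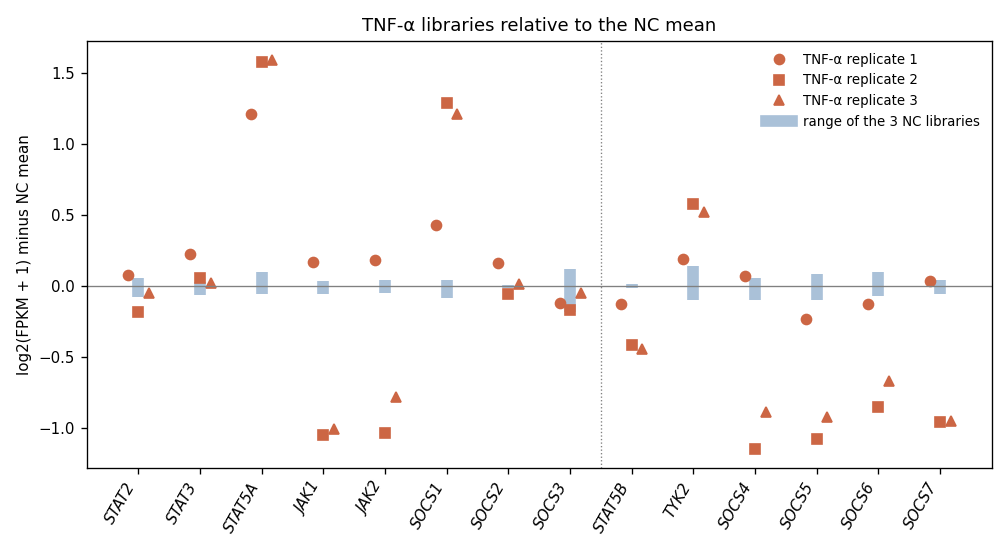
Difference of log2(FPKM + 1) from the NC mean in each TNF-α library (red symbols) for the 8 tested members, left of the dotted line, and the 6 other tested STAT, JAK and SOCS genes, with the range of the 3 NC libraries as blue bars. STAT5A lies at 1.21, 1.58 and 1.59, whereas for JAK1, JAK2 and SOCS1 replicate 1 lies apart from replicates 2 and 3.

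Ordered by mean level in NC, the members ran STAT3, STAT2, JAK1, SOCS3, SOCS2, JAK2, STAT5A, SOCS1 and STAT6. In this order the ranges of SOCS3 and SOCS2 overlapped, and all other neighbours were apart. In TNF-α the order was STAT3, STAT2, JAK1, SOCS2, SOCS3, STAT5A, SOCS1, JAK2 and STAT6. STAT5A had moved next to the SOCS2 and SOCS3 level, and its range overlapped that of SOCS3. The ranges of JAK1 and SOCS2, of SOCS2 and SOCS3, and of SOCS1 and JAK2 overlapped too, so these orders do not hold beyond the spread.

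**Figure D5:**
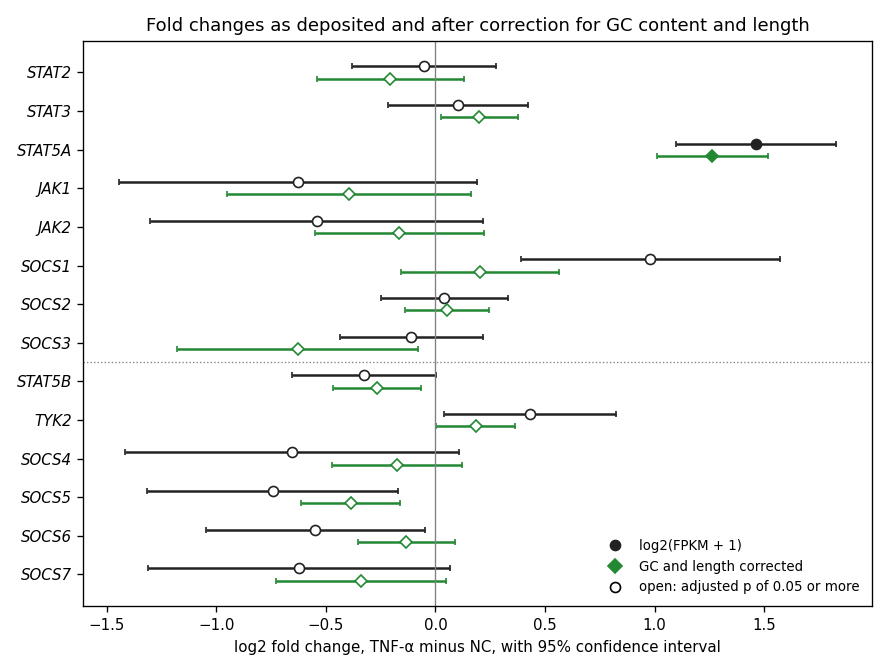
Log2 fold change (TNF-α minus NC) with its unadjusted 95% interval for the 8 tested members, above the dotted line, and 6 further STAT, JAK and SOCS genes, on log2(FPKM + 1) (black circles) and with the GC and length trend removed (green diamonds). Filled symbols mark an adjusted p under 0.05, which STAT5A has on both scales, and SOCS1 moves from 0.98 to 0.20 with the correction.

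The 300-base RefSeq promoter windows (GRCh38.p14, 250 bases before to 50 after a start) were searched on both strands for the STAT core TTCNNNGAA, for the interferon core (GAAA, any 2 bases, GAAA) and for the NF-κB consensus known as kappa B. NF-κB is the factor that TNF-α receptors activate. Of the 9 members, 8 matched, with 16 windows in all, and SOCS2 did not match. The STAT core was in 0 of the 16 windows, the interferon core in 1 and kappa B in 2, against 7.66%, 3.57% and 11.3% of 35116 promoters. Some members had several windows, and some windows lay far from the GENCODE gene start, up to 101242 bases for JAK1. The STAT6 window lay 21850 bases from it. The SOCS3 windows lay 848 and 410 bases from it, so the bases just before that start were not searched. The interferon core was in SOCS1, 113 to 104 bases before its start, and kappa B matches were in SOCS1 at 67 to 58 bases and in STAT5A at 219 to 210 bases before the most downstream of its 3 RefSeq starts, as GGGGGACCCC. That STAT5A start lay 951 bases downstream of the GENCODE gene start, and the windows of the other STAT5A starts held no kappa B match. The part of the SOCS1 promoter with both matches is shown because it is the one member window with both an interferon core and kappa B. It covers bases 153 to 18 before the start on the minus strand, chr16:11256222-11256357, with the interferon core and then kappa B in capitals.
SOCS1: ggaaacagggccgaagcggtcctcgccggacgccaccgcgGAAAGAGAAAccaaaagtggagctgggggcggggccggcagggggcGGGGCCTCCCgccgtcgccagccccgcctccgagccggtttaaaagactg

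The promoter of CISH, a SOCS family gene known as a STAT5 target, is set beside it because it held 4 STAT cores, given in capitals, between 250 and 64 bases before its start (minus strand, chr3:50611838-50612024).
CISH: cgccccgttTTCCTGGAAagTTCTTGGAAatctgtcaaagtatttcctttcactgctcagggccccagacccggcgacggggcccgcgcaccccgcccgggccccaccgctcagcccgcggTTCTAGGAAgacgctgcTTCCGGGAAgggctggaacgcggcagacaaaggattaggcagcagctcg

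CISH was low in both groups while STAT5A rose. It was at 0.292, 0.459 and 0.396 FPKM in NC, from 54, 77 and 65 reads, and at 0.420, 0.287 and 0.379 FPKM in TNF-α, from 69, 38 and 47 reads. The groups overlapped, and CISH failed the level filter, so it had no test. A motif match describes the letters of a window and does not show that a factor binds there.

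Of 9 other STAT, JAK and SOCS genes, 6 were tested and 0 were called by limma, with an unadjusted p under 0.05 in 3. Over all genes tested these shares were 1.01% and 24.2%, and the median log2 fold change was 0.043. The median log2 fold change of the 6 genes was -0.59, and 1 of the 6, TYK2, was positive. The ubiquitin ligase adaptors SOCS4, SOCS5, SOCS6 and SOCS7 had log2 fold changes of -0.65, -0.74, -0.55 and -0.62. These were -0.18, -0.39, -0.13 and -0.34 with the GC and length trend removed, and in TNF-α replicate 1 alone SOCS4 (0.070) and SOCS7 (0.037) were positive. The groups did not overlap in 4 of the 6 genes, STAT5B, TYK2, SOCS5 and SOCS6, against 30.1% of all genes tested. STAT4, JAK3 and CISH were below the filter.

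Further along the pathway, 10 of 35 ligands were tested and 2 were called, against 1.01% of all genes tested. Of the 10, CSF2, IL6, IL12A and IL23A were under an FPKM of 1 in every NC library and entered the test through their TNF-α values alone. Nothing is thus read from the direction, the median or the number called in this list. CSF2, which encodes GM-CSF, a cytokine that signals through JAK2 and STAT5, was at 0.0703, 0 and 0.396 FPKM in NC and at 9.09, 15.001 and 17.6 in TNF-α. It was near 0 in NC, where it had 2, 0 and 10 reads, and had 230, 306 and 336 reads in TNF-α replicates 1, 2 and 3. Limma called it (log2 fold change 3.66, adjusted p = 0.00407). As CSF2 entered the test through the group where it was high, that call is not used as support. Of its receptor chains, CSF2RB had 0 reads in all 6 libraries and CSF2RA was at 0.167 to 0.333 FPKM in NC and 0.544 to 0.553 in TNF-α, below the filter. LIF, a gp130 cytokine that signals through JAK1 and STAT3, was at 23.4 ± 2.89 FPKM in NC and 87.3 ± 2.1 in TNF-α (SD, n = 3). Its log2 fold change was 1.86 with a limma adjusted p of 0.00593. In FPKM, unlike JAK1 and JAK2, it had like values in all 3 TNF-α libraries, from 85.5 to 89.6. That closeness depends on the library sizes used in the FPKM. LIF had 10901, 9218 and 8370 reads in TNF-α replicates 1, 2 and 3, and per read in genes replicate 1 was the highest.

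Among receptors, 15 of 41 were tested and 1 was called, against 1.01% of all genes tested. IL15RA, the alpha chain of the IL-15 receptor, was at 1.07, 0.881 and 1.14 FPKM in NC and 2.88, 3.79 and 4.03 in TNF-α. The groups did not overlap, and the log2 fold change was 1.16 with a limma adjusted p of 0.0283, or 0.60 with an adjusted p of 0.135 once the GC and length trend was removed. The receptors' median log2 fold change was -0.01. Of 11 other inhibitors of the pathway (PIAS proteins, phosphatases and adaptors), 9 were tested and 0 were called by limma, with an unadjusted p under 0.05 in 3 and a median of -0.30. An unadjusted p under 0.05 was reached by 24.2% of all genes tested, whose median was 0.043.

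Of 24 genes known to answer STATs, 23 were tested and 2 were called, both higher, against 0.717% of all genes tested called higher. JUNB, an AP-1 subunit, was at 20.1 ± 0.582 FPKM in NC and 108 ± 34.5 in TNF-α (log2 fold change 2.31, limma adjusted p = 0.0201). IRF1, an interferon regulatory factor that interferon-γ and NF-κB both induce, was at 5.18 ± 0.565 FPKM in NC and 17.3 ± 4.62 in TNF-α (log2 fold change 1.53, limma adjusted p = 0.0429; SD, n = 3). Genes on the opposite strand covered 14.2% and 22.0% of their exonic bases. In the list, 17 of 23 had a positive log2 fold change, and the median was 0.35, against 0.043 over all genes tested. The share of positive log2 fold changes over all genes tested was not computed, so that count is not read as a shift. Without 1 library the calls of CSF2, LIF, IL15RA, JUNB and IRF1 were lost in part of the cases: over the single-library removals and all other settings the highest limma adjusted p was 0.0503, 0.103, 0.228, 0.168 and 0.291.

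By Pearson correlation of log2(FPKM + 1) over the 6 libraries, the tested genes most like STAT5A outside the lists were SH3RF2 (r = 0.999), ZNF121 (r = 0.997) and IER3 (r = 0.997). Of these IER3, an early TNF-α response gene, was itself called, with a log2 fold change of 3.16 (limma adjusted p = 0.0128), whereas SH3RF2 and ZNF121 were at 0.49 and 0.46 and were not. In all, 281 genes had r above 0.95. The libraries fall into 2 groups, so these values describe a shared split rather than a relation within a group.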

How the data were processed

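RNA of U251 cells was sequenced from oligo(dT)-selected libraries (NEBNext). The deposited table gives FPKM per gene, as the authors computed it, and a gene length. HISAT2 2.0.5, StringTie 1.3.3b and featureCounts 1.5.0 are named in the submitters' processing notes. Use of strand is not given in the sources used here. All 58735 genes matched GENCODE release 29 (Ensembl 94, GRCh38) by identifier and length. A further 6 sample columns belong to no sample here and were not used. The labels describe the 3 replicates of a group as independent.

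The FPKM values were whole multiples of 1 read per gene in 100% of values (tolerance 0.01), so reads and depth were recovered. R 4.3.3 with limma 3.58.1 fitted log2(FPKM + 1) on the group with an intensity trend, over the 12136 genes that reached an FPKM of 1 in 3 or more libraries. Fold changes on this scale understate those of low genes. FPKM was tested rather than reads, and limma-voom on the recovered reads was an alternative. In the GC and length correction, natural splines with 5 degrees of freedom for the GC content and length of the longest transcript were fitted to each library's log2 ratios and subtracted. Alternatives covered pseudocounts, filters, TPM, quantile and median scaling, a replicate block and each library left out; TNF-α replicate 1 alone against NC was added after seeing the data. Intervals are 95% and unadjusted. The self-test ran on simulated data. Python 3.11.15, pandas 2.3.3, scipy 1.17.1 and matplotlib 3.10.9 served for ratios, permutation tests and figures.

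The members and lists were chosen with earlier results of these data known. Named genes were all members, every tested gene among the other STAT, JAK and SOCS genes (1 gene of that list is not reported here and is not counted in it), up to 4 called genes per list with the largest change, and the 3 genes most correlated with a called member. CISH, the cell type markers, CSF2RA, CSF2RB, IL6, IL12A, IL23A, IL4R, IL27RA, IFNGR2, PIM1, BCL2L1 and ISG15 were named outside that rule, after their values were seen. So were LIFR, LEPR and IFNLR1.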

Additional observations from a re-analysis of the deposited data

How the results depend on the processing

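STAT5A kept its direction under all 23 alternatives, from 1.18 to 1.73, and its call under 15. The 15 include TNF-α replicate 1 alone, a fit without spread among TNF-α libraries. The call was lost under TPM (1.18, limma adjusted p = 0.0731) and under the replicate block (1.46, adjusted p = 0.0956). It was also lost under the replicate block with GC and length correction (1.26, adjusted p = 0.0592). The same held for all removals of 1 library (1.40 to 1.59) but that of TNF-α replicate 1. Same-numbered libraries had correlations of deviations of -0.01, -0.18 and 0.12, and the others ranged from -0.16 to 0.18. Deviations from a mean of 3 libraries constrain each other, so these values cannot decide whether the cultures were paired. TPM moved the median of all genes tested to -0.42 and voom on total reads to -0.21, so STAT3 at -0.39 and -0.16, SOCS2 at -0.44 and -0.22 and TYK2 at -0.057 under TPM lay near or above those medians. STAT3 was -0.22 under quantile normalization. SOCS2 was -0.021 under quantile normalization, -0.0060 when centred on the median log2 ratio and -0.020 under voom with median-of-ratios size factors, and without 1 library it ranged from -0.019 (TNF-α replicate 1) to 0.089. For STAT2 these removals gave -0.12 to 0.014, the latter with TNF-α replicate 2 removed. Without TNF-α replicate 1, JAK1 (-1.02), JAK2 (-0.91) and SOCS1 (1.25) passed the threshold, and over single-library removals JAK1 ranged from -1.02 to -0.42, JAK2 from -0.91 to -0.30 and SOCS1 from 0.83 to 1.25. In TNF-α replicate 1 alone, assumed to vary like the NC libraries, STAT2 (0.077), JAK1 (0.17), JAK2 (0.18), SOCS4 (0.070) and SOCS7 (0.037) were positive, and the STAT5A to STAT5B log2 ratio differed by 1.62. The count of members called was 0 under TPM and under both replicate blocks and ranged from 0 to 4 without 1 library. The count of pathway list genes called, 5 as reported, was 2 with no filter, 1 under the replicate block, 8 with GC and length correction, 3 with both, 16 in TNF-α replicate 1 alone and 0 to 54 without 1 library. Over all genes tested, 123 calls became 58 with no filter, 79 with an FPKM of at least 5, 58 under TPM, 185 under quantile normalization, 24 under the replicate block, 77 under voom on total reads, 338 with GC and length correction, 51 with both, 732 in TNF-α replicate 1 alone and 10 to 9630 without 1 library, the highest without TNF-α replicate 1. JAK2, SOCS1, SOCS5, SOCS6 and IL15RA had no value at an FPKM of at least 5, and STAT6 had no fit. Depth limits STAT6, at 0 to 11 reads, and the causes of these changes were not tested.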

Other observations

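Of 15 receptors tested, 5 were higher and 3 lower in every TNF-α library, against 14.8% and 15.3% of all genes tested. The lower ones were LIFR, LEPR and IFNLR1, with log2 fold changes of -0.89, -0.62 and -0.34 (limma adjusted p = 0.195 for each). With the GC and length trend removed they were -0.37, -0.12 and -0.42. Chains of 3 pathways, picked after their values were seen, were among those higher without passing the threshold. IL4R, which binds IL-4 and acts through STAT6, was at 6.69 ± 1.06 FPKM in NC and 14.5 ± 3.08 in TNF-α (SD, n = 3; log2 fold change 1.00, limma adjusted p = 0.102). IL27RA, which signals through JAK1, was at 2.52 ± 0.0842 and 6.49 ± 1.76 FPKM (log2 fold change 1.06, limma adjusted p = 0.0937). IFNGR2, the chain that brings JAK2 to the interferon-γ receptor, was at 6.11 ± 0.936 and 11.1 ± 1.32 FPKM (log2 fold change 0.77, limma adjusted p = 0.106). With the GC and length trend removed, IL4R (0.70, adjusted p = 0.0233) and IL27RA (0.63, adjusted p = 0.016) were past the threshold and IFNGR2 (0.32, adjusted p = 0.206) was not. Of genes known to answer STATs, 3 more were picked after their values were seen. PIM1, a kinase gene that STAT3 and STAT5 are known to induce, was lower in every TNF-α library, at 9.01 ± 0.561 FPKM in NC and 5.97 ± 0.683 in TNF-α (log2 fold change -0.53, limma adjusted p = 0.164), or -0.96 with the GC and length trend removed (adjusted p = 0.0840). The anti-apoptotic gene BCL2L1 was at 49.1, 134.7 and 107.1 FPKM in TNF-α replicates 1, 2 and 3, against 43.1 to 48.1 in NC, so replicate 1 was barely above NC (log2 fold change 0.98, limma adjusted p = 0.195, or 0.52 with the trend removed), and ABALON on the opposite strand covered 43.0% of its exonic bases. ISG15, an interferon-induced modifier, was at 797.6 to 894.7 FPKM in NC and at 845.0, 3999.8 and 3123.9 FPKM in TNF-α, where replicate 1 lay inside the NC range.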
